A study of Mus musculus with 6 samples.

Results

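The fibrillar collagens are the chains that assemble into cross-striated fibrils, and 10 of their genes were followed here among the 43430 gene IDs of the count table. They were taken by name: Col1a1 and Col1a2 (type I), Col2a1 (type II), Col3a1 (type III), Col5a1, Col5a2 and Col5a3 (type V), Col11a1 (type XI), Col24a1 (type XXIV) and Col27a1 (type XXVII). Male C57BL/6J mice, 9 to 11 weeks old, gave the lung fibroblasts, which were sorted by flow cytometry for the surface receptor PDGFRA. Control mice breathed room air, and exposed mice breathed 10% CO2 (hypercapnia) at a normal oxygen level for 10 days. Each group had 9 mice, and the cells of 3 mice were pooled for each of its 3 libraries, called M1, M2 and M3 in room air and M4, M5 and M6 in hypercapnia. The comparison asks how 10 days of high CO2 alter what these fibroblasts express, and the series is titled for their Wnt production.

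Fibrillar procollagen chains fold in the endoplasmic reticulum into a triple helix, are secreted, lose their terminal propeptides and then assemble into fibrils that lysyl oxidases cross-link. Types I and III form the bulk of the fibrils of lung interstitium, and fibroblasts are their main source. Type V is a minor component that starts fibrils and limits their width, and its usual trimer holds alpha1 and alpha2 chains while a rarer form also takes in the alpha3 chain encoded by Col5a3. Types II and XI build cartilage fibrils, and types XXIV and XXVII are members known from developing bone and cartilage.

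Total counts ran from 8999780 to 10198336 per library, above the average depth of aligned reads that the labels state. The sorted receptor gene Pdgfra stood between 2530.4 and 3707 CPM, the counts of each library scaled to a common total with TMM composition factors. All 10 genes of a list of general fibroblast markers passed the expression filter, 0 of them changed, and 3 of the 10 are fibrillar collagens described below. Other cell types were present at varying levels: the summed level of 18 endothelial markers ran from 865 to 3181 CPM in room air and from 3137 to 5116 CPM in hypercapnia. By edgeR's quasi-likelihood test, 159 of 13005 tested genes changed at an adjusted p under 0.05, 68 higher and 91 lower in hypercapnia, and 97 and 75 without composition factors.

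Of the 10 chains, 8 passed the expression filter and 2, Col2a1 and Col11a1, did not. Col5a3 fell to 0.346 of its room air level, Col27a1 rose by 1.46-fold, and 6 chains did not pass the test. The background over all tested genes was 1.22% called in either direction, 0.523% higher and 0.700% lower. The median log2 fold change of the 8 tested chains was -0.04, beside 0.01 over all tested genes, with 3 positive and 5 negative values. For 4 of the 8 chains (Col5a1 and Col5a3 lower, Col24a1 and Col27a1 higher) every library of a group lay on 1 side of the other group, as it did for 18.0% of all tested genes, 9.28% higher and 8.74% lower.

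The chains spanned a wide range of levels. Levels are compared between genes per length, as CPM per kilobase of the longest annotated transcript (FPKM). Col3a1 was the most abundant chain with a mean of 1265 FPKM over the 6 libraries, followed by Col1a2 at 1114 and Col1a1 at 845 FPKM. Over all 6 libraries the ranges of Col3a1 (1121 to 1358 FPKM) and Col1a2 (993 to 1308 FPKM) overlapped, while Col1a1 (763 to 922 FPKM) lay below both. In room air Col3a1 (1196 to 1358 FPKM) lay above Col1a2 (993 to 1094 FPKM). In hypercapnia they overlapped, with Col1a2 the higher in M5 (1308 against 1285 FPKM). Col5a2 at 101 and Col5a1 at 82.2 FPKM came next, with overlapping ranges of 90.6 to 109 and 73.7 to 97.0 FPKM. Within every library Col5a2 was above Col5a1 by this length. Col27a1 (15.8 FPKM) and Col5a3 (8.86 FPKM) followed, and their order depended on the group: in room air their ranges met, at 11.8 to 14.3 and 12.3 to 14.5 FPKM, and in hypercapnia they lay apart, at 18.1 to 19.4 and 4.17 to 4.79 FPKM. Col24a1 (0.210 FPKM), Col2a1 (0.0353 FPKM) and Col11a1 (0.0237 FPKM) were near the limit of detection. With the union of all annotated exons as the length, which for Col1a2 is 12426 bases against 5348 in its longest transcript, Col1a1 ranked highest (763 FPKM), then Col3a1 (717 FPKM) and Col1a2 (479 FPKM).

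**Figure D1:**
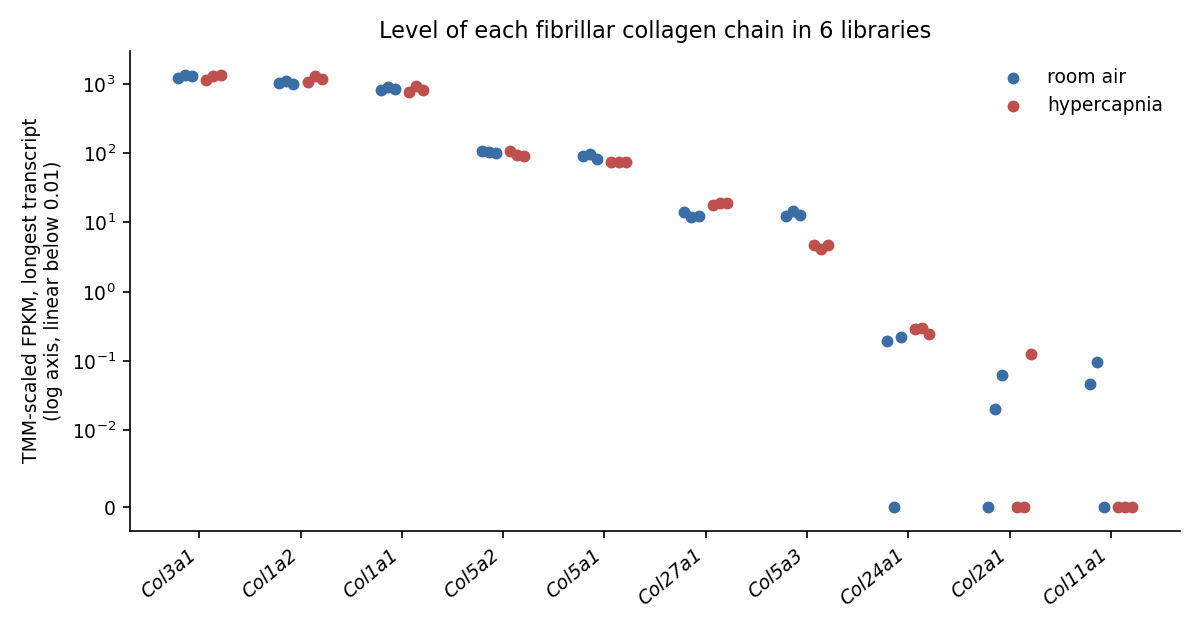
Level of each chain in every library, as TMM-scaled CPM per kilobase of the longest transcript (FPKM), on a log axis that is linear below 0.01. Points are libraries, blue for room air and red for hypercapnia, 3 per group. Col3a1, Col1a2 and Col1a1 lie between 763 and 1358 FPKM, Col5a3 and Col27a1 separate by group, and Col2a1 and Col11a1 are at 0 in several libraries.

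The 3 chains of types I and III held most of the signal. The 10 genes together took 1.762%, 1.998% and 1.926% of all counts in M1 to M3 of room air, while M4 to M6 of hypercapnia had 1.750%, 2.195% and 2.099%. Between 91.1% and 93.1% of these counts fell on Col1a1, Col1a2 and Col3a1. The mean share was 1.90% ± 0.121 (SD, n = 3) in room air and 2.01% ± 0.234 in hypercapnia, and the groups overlapped (exact two-sided permutation test, p = 0.5, where 3 against 3 libraries cannot go below 0.1).

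Col1a1, on chromosome 11 from 94936224 to 94953042 of GRCm38 (mm10), encodes the alpha1 chain of type I collagen. It stood at 4846, 5397 and 4992 CPM in room air (M1 to M3, in order here and in what follows) and at 4526, 5466 and 4833 CPM in hypercapnia (M4 to M6). The hypercapnia libraries spanned the room air range on both sides. The edgeR log2 fold change was -0.039 ± 0.095 (SE), with a 95% interval of -0.25 to 0.17 and an adjusted p of 0.929, so a change beyond 1.13-fold up or to less than 0.842 of the room air level lay outside the interval. The sign turned without composition factors, where the log2 fold change was 0.027.

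Col3a1, on chromosome 1 from 45311538 to 45349706, encodes the only chain of the type III homotrimer, which co-assembles with type I in distensible tissues. Its values were 6656, 7553 and 7156 CPM in room air and 6235, 7149 and 7484 CPM in hypercapnia. The groups overlapped, and M2 held the highest and M4 the lowest value. The log2 fold change was -0.034 ± 0.093 (95% interval -0.24 to 0.17, adjusted p = 0.938) by edgeR, and 0.032 without composition factors. Of its exonic bases, 1.44% are shared with an annotated microRNA gene on the same strand.

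Col1a2, on chromosome 6 from 4504814 to 4541544, encodes the alpha2 chain that joins alpha1 chains in the type I heterotrimer. It stood at 5544, 5853 and 5313 CPM in room air and at 5689, 6997 and 6350.0 CPM in hypercapnia. M5 and M6 were above all room air libraries, while M4 lay between M1 and M2. By edgeR the log2 fold change was 0.19 ± 0.09 (95% interval -0.02 to 0.40), and it did not pass the test (adjusted p = 0.475).

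Ratios between chains were also taken within each library. Per longest transcript, the ratio of Col1a2 to Col1a1 was 1.268, 1.203 and 1.180 in room air and 1.394, 1.419 and 1.457 in hypercapnia. Every hypercapnia library was above every room air library. The hypercapnia ratio was 1.17-fold that of room air (exact two-sided permutation test, p = 0.1, the smallest that 3 against 3 libraries allow, and 0.2 after adjustment over the 6 ratios computed). The ratio of Col3a1 to Col1a1 was 1.46, 1.49 and 1.53 in room air and 1.47, 1.39 and 1.65 in hypercapnia, with overlapping groups (1.004-fold, exact permutation p = 0.9). Such ratios use no library scaling, and the choice of length moves their level without moving the fold between groups.

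Within type V, Col5a3 moved apart from Col5a1 and Col5a2. Col5a3, ENSMUSG00000004098, lies on the minus strand of chromosome 9 from 20770050 to 20815067, and its longest transcript has 67 exons. None of its exonic bases is shared with another annotated gene. It stood at 75.3, 88.6 and 77.9 CPM in room air and at 29.3, 25.5 and 28.8 CPM in hypercapnia. The lowest room air library was thus well above the highest hypercapnia library. Counts behind these values were 638 to 843 per room air library and 257 to 307 per hypercapnia library. The log2 fold change was -1.53 ± 0.13 (95% interval -1.82 to -1.25), a level of 0.346 of room air, with an edgeR adjusted p of 0.000642, and Col5a3 was called in all 16 alternative settings.

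Col5a1, on chromosome 2 from 27886425 to 28039514, encodes the alpha1 chain found in nearly all type V trimers. It stood at 763, 816 and 685 CPM in room air and at 628, 636 and 619 CPM in hypercapnia. All hypercapnia libraries were below all room air libraries, by a small margin. The log2 fold change was -0.27 ± 0.11 (95% interval -0.50 to -0.03) and did not pass the test over all genes (edgeR adjusted p = 0.329). Of its exonic bases, 2.50% are shared with non-coding genes on the other strand, and the strand setting of the counting is not given in the sources used here.

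Col5a2, on chromosome 1 from 45374321 to 45503282, encodes the alpha2 chain. Its values were 716, 688 and 669.9 CPM in room air and 719.97, 633 and 600.2 CPM in hypercapnia. The groups overlapped, with M4 the highest of the 6 libraries. Its log2 fold change was -0.09 ± 0.11 (95% interval -0.33 to 0.15, edgeR adjusted p = 0.836).

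**Figure D2:**
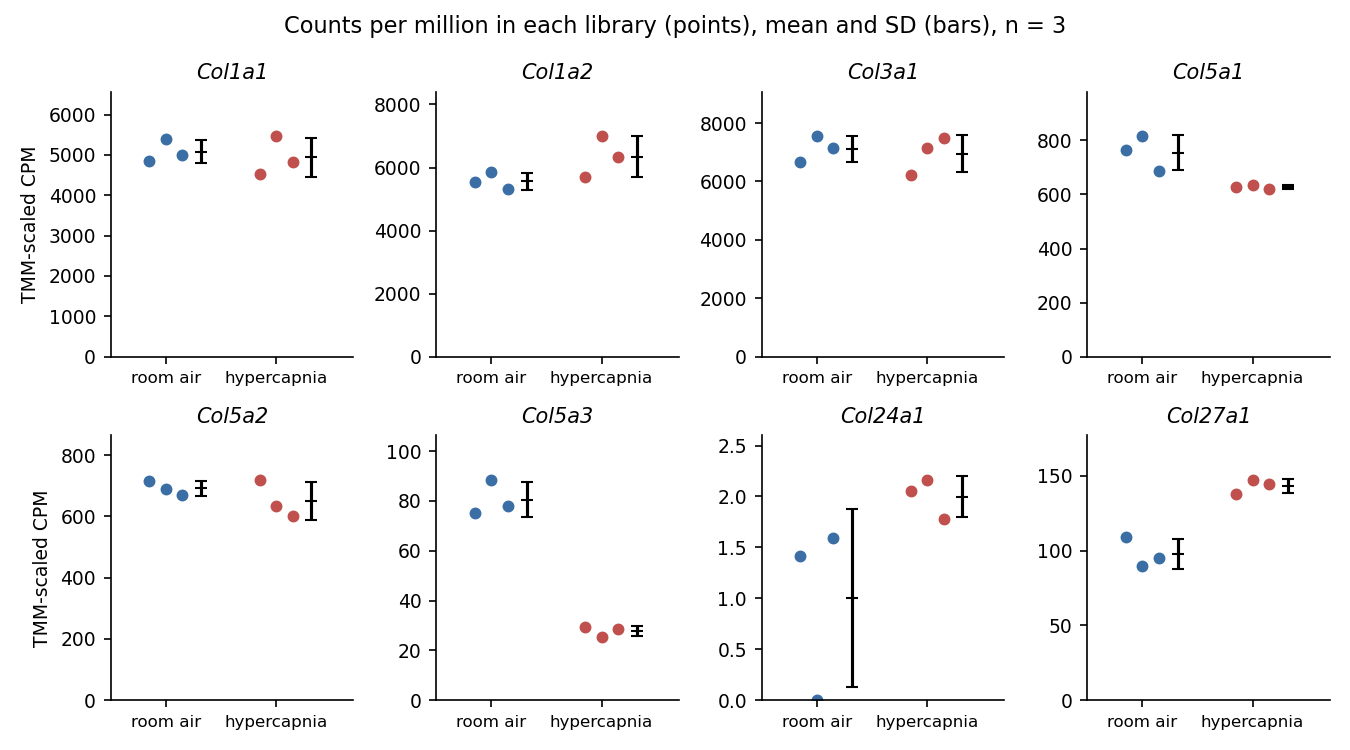
TMM-scaled CPM of the 8 tested chains, with 1 panel per gene and axes that start at 0. Points are libraries (blue, room air; red, hypercapnia), and the bars beside them give mean and SD, n = 3. Col5a3 falls from between 75.3 and 88.6 to between 25.5 and 29.3 CPM, Col27a1 is higher in all 3 hypercapnia libraries, and the groups of Col1a1, Col3a1 and Col5a2 overlap.

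Measured against its partner chains, Col5a3 was lower in every hypercapnia library than in any room air library. Per longest transcript, the ratio of Col5a3 to Col5a1 was 0.136, 0.149 and 0.156 in room air and 0.0641, 0.0551 and 0.0638 in hypercapnia. The groups did not overlap, and the hypercapnia ratio was 0.415 of that in room air. The ratio of Col5a3 to Col5a2 was 0.114, 0.139 and 0.126 in room air and 0.0440, 0.0436 and 0.0519 in hypercapnia, which is 0.368 of room air. Both exact two-sided permutation tests gave p = 0.1, the smallest possible, and 0.2 after adjustment. Of the type V transcripts counted per length of the longest transcript, Col5a3 made up 5.82% to 6.72% in room air and 2.38% to 2.78% in hypercapnia. Col5a2 made up 48.2% to 51.8% in room air and 53.6% to 57.7% in hypercapnia. The share of Col5a1 overlapped, at 41.7% to 45.1% in room air and 39.7% to 43.6% in hypercapnia. As parts of a whole, these shares depend on each other. In CPM neither Col5a2 (log2 fold change -0.09) nor Col5a1 (-0.27) rose.

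The ratios of Col5a2 to Col5a1 and of Col5a1 to Col1a1 overlapped between groups. Col5a2 to Col5a1 ran from 1.07 to 1.24 in room air and from 1.23 to 1.45 in hypercapnia (1.13-fold, exact permutation p = 0.2). Col5a1 to Col1a1 ran from 0.0969 to 0.111 in room air and from 0.0821 to 0.0979 in hypercapnia (0.859-fold, exact permutation p = 0.2).

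**Figure D3:**
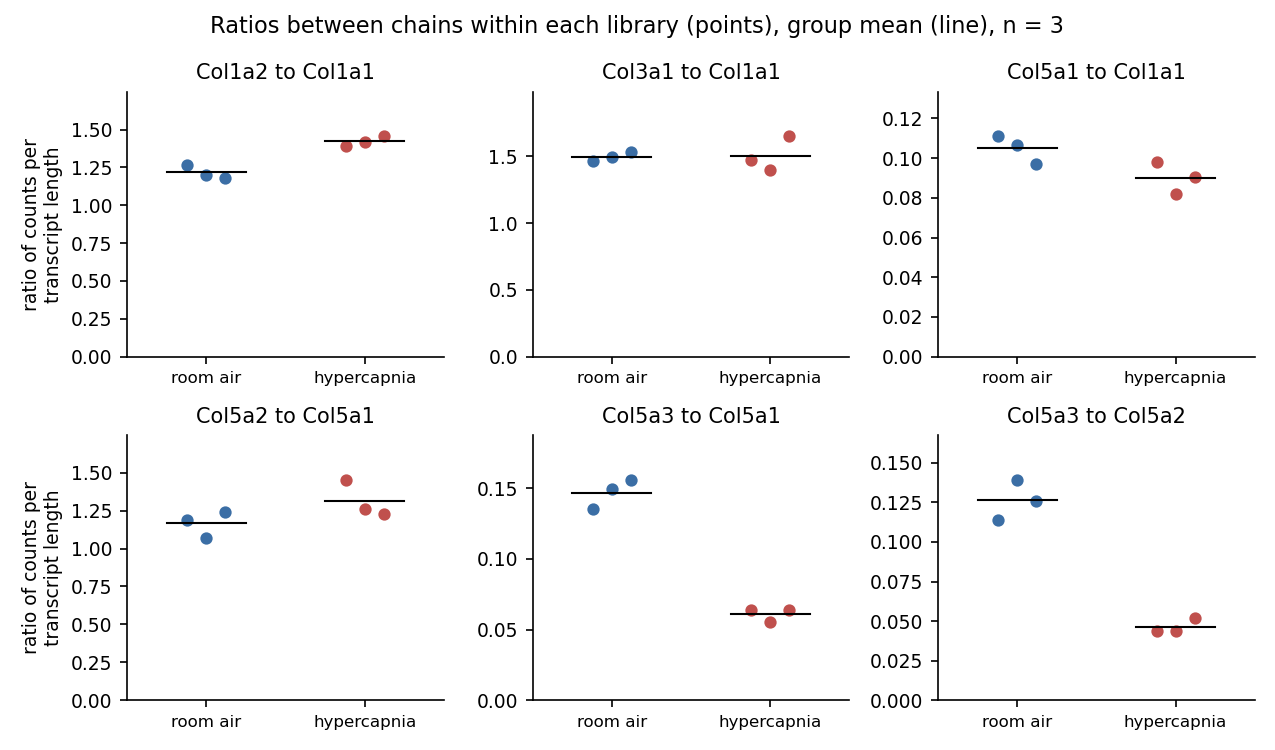
Ratios between chains within each library, as counts per base of the longest transcript, with axes that start at 0. Points are libraries (blue, room air; red, hypercapnia) and lines are group means, n = 3. Col1a2 to Col1a1 is higher in all 3 hypercapnia libraries, the ratios of Col5a3 to its partner chains are 0.415 and 0.368 of room air, and the other 3 ratios overlap.

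Col27a1, ENSMUSG00000045672, encodes the homotrimeric type XXVII chain and lies on chromosome 4 from 63214004 to 63334991. It stood at 109, 90.0 and 94.8 CPM in room air and at 138, 147 and 144 CPM in hypercapnia. The groups did not overlap, and the hypercapnia libraries varied less (3.40% against 10.2% as SD over mean). The log2 fold change was 0.55 ± 0.11 (95% interval 0.30 to 0.80, edgeR adjusted p = 0.0468). The call lay close to the threshold and was lost when any 1 of the 6 libraries was left out (adjusted p from 0.0567 without M1 to 0.259 without M2), with RLE factors (0.0524), with the mean level of endothelial markers as a covariate (0.114) and without both M3 and M4 (0.0684). Its log2 fold change stayed between 0.49 and 0.63 in all 16 alternatives.

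Col24a1, on chromosome 3 from 145292472 to 145552011, encodes the type XXIV chain. It had 12, 0 and 15 counts in room air and 18, 22 and 19 counts in hypercapnia. The hypercapnia counts were all above those in room air, and M2 held none. With 86 counts in all, the log2 fold change of 0.99 ± 0.87 had a 95% interval of -0.94 to 2.93 (edgeR adjusted p = 0.745), which spans both a fall and a large rise. It was 0.40 ± 0.59 without M2, 1.51 ± 1.05 without M3 and 2.06 ± 1.07 with limma-voom, and it passed the test in none of the alternatives that gave a value.

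The cartilage chains Col2a1 and Col11a1 were at the edge of detection. Col2a1, on chromosome 15 from 97975602 to 98004695, had 0, 1 and 3 counts in the room air libraries and 0, 0 and 7 in the hypercapnia libraries. Summed over a group this was 0.146 CPM (exact 95% Poisson interval 0.0398 to 0.374) in room air and 0.236 CPM (0.0951 to 0.487) in hypercapnia, intervals that cover counting error only and take each count as 1 independent read. Col11a1, on chromosome 3 from 114030540 to 114220718, had 3, 7 and 0 counts in room air and 0 in each hypercapnia library, where 3 counts over the group would be 0.101 CPM. Its 10 room air counts came from M1 and M2 alone, at 0.354 and 0.736 CPM, and neither chain was tested. Of 12 chondrocyte markers 2 passed the filter and 0 changed, and their summed level ran from 54.4 to 68.5 CPM in room air and from 42.5 to 55.2 CPM in hypercapnia, with Matn4 alone at a mean of 56.0 and 44.9 CPM. Col9a1, Matn1, Matn3 and Snorc had 0 counts in every library, and Acan, the main cartilage proteoglycan gene, had 6 in all.

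**Figure D4:**
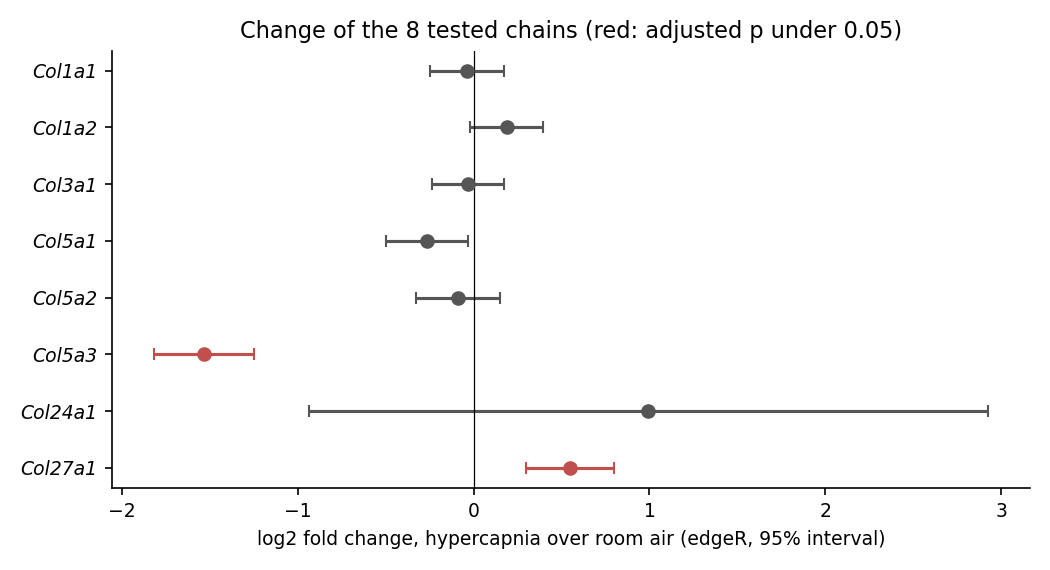
Log2 fold change of hypercapnia over room air for the 8 tested chains, with 95% intervals from the edgeR fit over all genes. Red marks an adjusted p under 0.05, which Col5a3 (-1.53) and Col27a1 (0.55) reach, and the intervals of Col1a1 (-0.25 to 0.17), Col3a1 (-0.24 to 0.17) and Col5a2 (-0.33 to 0.15) span 0.

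The miR-29 family is a known repressor of collagen mRNAs, and it is shown because letters complementary to its seed occurred in most of these chains. Its 3 mature forms in RefSeq (GRCm38.p6) have 1 seed, bases 2 to 8, in capitals:
mmu-miR-29a-3p: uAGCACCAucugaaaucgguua
mmu-miR-29b-3p: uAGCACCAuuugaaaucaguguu
mmu-miR-29c-3p: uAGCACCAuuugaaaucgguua

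The letters complementary to that seed, TGGTGCT, were searched on the sense strand of the 3' untranslated region (UTR) of the longest coding transcript of each gene in GENCODE M21. They occurred in 9 of the 10 collagen UTRs, all but that of Col1a2, and in 12.96% of 20964 UTRs searched. Col5a1 held 4 matches in 2498 bases and Col5a3 held 3 in 785 bases. Of the 2527 other UTRs within 20% of the length of that of Col5a1, 0 had as many matches, and likewise 0 of 2384 for Col5a3. Col11a1 had 2 matches, and the other 6 chains with a match had 1 each, where between 4.87% and 15.3% of UTRs of like length had any. The matches of Col5a3 and 1 match each of Col1a1, Col3a1 and Col27a1 are printed with the matching letters in capitals:
Col5a3, chr9:20770778-20770800, minus strand: cacatgggctcctTGGTGCTgag
Col5a3, chr9:20770501-20770523, minus strand: ccaccaggcctttTGGTGCTatt
Col5a3, chr9:20770249-20770271, minus strand: tcaggatcctacaTGGTGCTgcc
Col1a1, chr11:94952525-94952547, plus strand: gggaaggaatttcTGGTGCTata
Col3a1, chr1:45348969-45348991, plus strand: caaaatgtctcaaTGGTGCTata
Col27a1, chr4:63333907-63333929, plus strand: actgtgaaatcgcTGGTGCTcac

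A match is a description of the letters and not a measured site, and mature miR-29 was not measured in these libraries. Chains with a match were found among those that fell (Col5a3), rose (Col27a1) and did not pass the test (Col1a1, Col3a1, Col5a1, Col5a2 and Col24a1).

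Promoter windows of 300 bases, from 250 before to 50 after the gene start in RefSeq, were present in its table (GRCm38.p6) for 7 of the 10 chains. The RefSeq start is the GENCODE gene start for 5 of them, and lies inside the GENCODE gene, 1408 bases downstream for Col27a1 (at 63215412) and 804 for Col1a2 (at 4505618). The windows of the chains that changed, Col5a3 and Col27a1, are printed with that of the abundant chain Col1a2. Capitals mark CCAAT or its reverse complement ATTGG, the letters bound by the factor NF-Y:
Col5a3, chr9:20815018-20815317, minus strand: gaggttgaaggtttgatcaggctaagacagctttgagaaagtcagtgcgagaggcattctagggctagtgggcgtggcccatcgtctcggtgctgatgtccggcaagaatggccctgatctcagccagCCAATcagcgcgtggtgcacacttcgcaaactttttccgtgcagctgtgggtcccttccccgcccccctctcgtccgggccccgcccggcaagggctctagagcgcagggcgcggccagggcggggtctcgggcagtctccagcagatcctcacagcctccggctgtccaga
Col27a1, chr4:63215162-63215461, plus strand: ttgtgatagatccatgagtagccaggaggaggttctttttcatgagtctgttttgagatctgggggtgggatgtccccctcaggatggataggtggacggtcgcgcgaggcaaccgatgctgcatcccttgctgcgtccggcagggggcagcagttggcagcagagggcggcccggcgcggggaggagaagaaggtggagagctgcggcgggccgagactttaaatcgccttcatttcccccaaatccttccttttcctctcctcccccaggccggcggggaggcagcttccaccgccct
Col1a2, chr6:4505368-4505667, plus strand: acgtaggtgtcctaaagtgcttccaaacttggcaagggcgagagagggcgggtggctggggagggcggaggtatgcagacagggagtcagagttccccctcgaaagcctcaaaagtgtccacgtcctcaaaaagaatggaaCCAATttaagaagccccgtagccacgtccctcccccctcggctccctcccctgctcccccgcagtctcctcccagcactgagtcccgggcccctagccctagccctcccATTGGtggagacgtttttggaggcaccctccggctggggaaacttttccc

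CCAAT, read on both strands, occurred in 3 of the 7 windows (Col1a2, Col5a3 and Col11a1), in 37.4% of all 32851 windows in the table and in 37.1% of the 12674 windows of tested genes. Its first base lay at position -122 in Col5a3 and at -109 in Col1a2, counted from the RefSeq start, and Col1a2 held ATTGG at position 1. The GC box GGGCGG or its complement occurred in 5 of 7 windows, in 35.7% of all and in 62.5% of those of tested genes, with 3 matches in Col5a3 and 2 each in Col27a1, Col1a2, Col5a1 and Col11a1. TATAAA occurred in Col3a1 alone among the 7, in 13.6% of all windows and in 7.09% of those of tested genes. CACGTG, the E-box that clock factors bind, occurred in 0 of 7, in 7.15% of all and in 9.85% of those of tested genes. TGACG, the core of sites bound by factors of the CREB and CREB3 families, occurred in Col24a1 alone, in 20.8% of all and in 30.4% of those of tested genes. The letters found in Col5a3 (CCAAT and GC box) and in Col27a1 (GC box) also occurred in Col1a2, which did not pass the test. Col1a1, Col2a1 and Col5a2 had no window, and a link of these letters to the changes was not tested.

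By likeness of log2 CPM over the 6 libraries, among the 10757 other genes that averaged 5 CPM or more, the nearest to Col5a3 were Npas2 (Pearson's r = 0.999, Spearman's rho = 1), Fgfr4 (r = 0.998, rho = 0.886) and Rras2 (r = 0.997, rho = 0.943). Npas2, a circadian transcription factor, went from 13.1 to 0.107 CPM, Fgfr4, a fibroblast growth factor receptor, from 381 to 246 CPM, and Rras2, a small GTPase of the Ras family, from 218 to 129 CPM. The hypercapnia mean of Npas2 is below the level of 3 counts in any library (0.281 to 0.354 CPM), so its log2 values there lie near the floor. The nearest to Col27a1 were Lonrf1 (r = 0.993), Angptl7 (r = 0.992) and Rev1 (r = 0.990). With 6 libraries in separate groups, 137 genes reached r over 0.95 with Col5a3 and 68 with Col27a1, so these values describe the libraries only.

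Markers of fibroblast subtypes and of other cells were followed beside the chains. Of 17 markers of alveolar fibroblasts, the fibroblasts of the gas exchange region, 6 fell (Gyg, Col13a1, Lpl, Fgfr4, Limch1 and Npnt) and 0 rose, with a median log2 fold change of -0.37. The summed level of the 17 ran from 32076 to 33536 CPM in room air and from 25097 to 28144 CPM in hypercapnia. In such bulk samples fewer cells of a type and less RNA per cell cannot be told apart, and this holds for the fall of Col5a3 too. Of 16 adventitial markers Il33 rose and 15 did not pass, with 13 positive log2 fold changes and a median of 0.52. Their summed level, 33399 to 37688 CPM in room air and 31146 to 34982 CPM in hypercapnia, went the other way and was mostly that of Gsn, which made up 90.8% and 87.1% of it (log2 fold change -0.17, edgeR adjusted p = 0.354). Of 10 myofibroblast markers 2 rose (Ltbp2 and Aspn), and their summed level was 4070 to 4502 CPM in room air and 3518 to 4457 CPM in hypercapnia.

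The log2 fold change was positive for all 18 endothelial markers (median 0.88), and 0 of them passed the edgeR test. With their mean level in the fit, Col5a3 was still called (-1.56 ± 0.17, adjusted p = 0.000950). Without M3 and M4, the libraries with the lowest and the highest endothelial level, it was called as well (-1.61 ± 0.17, adjusted p = 0.000239). Col27a1 was called in neither setting (edgeR adjusted p = 0.114 and 0.0684). The mean log2 level of these markers was higher in every hypercapnia library than in any room air library, so the fit separates it from group only in part. The 12 smooth muscle and pericyte markers summed to 481 to 503 CPM in room air and 499 to 549 CPM in hypercapnia, with 0 changed. None of 12 epithelial markers changed (412 to 700.3 and 396 to 512 CPM). Leukocyte markers summed to at most 61.3 CPM in any library, 0 of them changed, and 5 of 12 were at 0 everywhere. Of 5 tested mesothelial markers Upk1b fell (-0.73 ± 0.13, edgeR adjusted p = 0.0317). The other 4 had positive log2 fold changes that did not pass the test, with a list median of 0.90. The summed level of the list went the other way, at 228 to 275 CPM in room air and 129 to 210 CPM in hypercapnia. It was mostly that of Upk1b, at a mean of 226 and 137 CPM. The part of these other cells in the changes of Col5a3 and Col27a1 was not tested further.

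Over 7 lists of collagen production, assembly, receptors and turnover, 5 of 90 tested genes changed (5.56%), beside 1.22% of all tested genes. The lists were chosen with earlier results of these data known, so these percentages are a description and not a test of an excess. Of 21 tested genes for folding and modification in the endoplasmic reticulum, such as prolyl and lysyl hydroxylases and the collagen chaperone Serpinh1, 0 changed, and the median log2 fold change was -0.06. The smallest p-values belonged to the collagen galactosyltransferase Colgalt2 (-0.37 ± 0.12, adjusted p = 0.227), the prolyl hydroxylase P4ha1 (-0.29 ± 0.11, 0.291) and the lysyl hydroxylase Plod2 (-0.27 ± 0.11, 0.355). Of 16 tested genes of export, RNA binding and transcription, Creb3l1 fell and 15 did not pass. Creb3l1, a membrane-bound transcription factor known to drive Col1a1 transcription in mouse bone, fell from 82.8 ± 12.7 to 26.3 ± 7.68 CPM (-1.66 ± 0.20, edgeR adjusted p = 0.00527).

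Of the 7 tested genes for propeptide cleavage 0 changed. The lowest p-values were those of Bmp1, the C-propeptide protease (0.34 ± 0.10, adjusted p = 0.180), and its enhancers Pcolce2 (-0.28 ± 0.09, 0.205) and Pcolce (-0.31 ± 0.11, 0.254). Of 6 cross-linking genes 0 changed and 5 had a negative log2 fold change, with a median of -0.32. The lysyl oxidases Loxl1 (1402 ± 107 to 1050.4 ± 5.98 CPM, -0.42 ± 0.10, adjusted p = 0.0821), Lox (-0.45 ± 0.20, 0.398) and Loxl4 (-0.39 ± 0.18, 0.438) had the smallest p-values.

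Of 18 tested genes of the fibril surface and of fibril assembly, 2 rose and 1 fell. The small leucine-rich proteoglycans Podn (123 ± 12.6 to 225 ± 40.3 CPM, 0.87 ± 0.14, adjusted p = 0.0199) and Aspn (37.1 ± 9.70 to 72.6 ± 10.4 CPM, 0.97 ± 0.19, 0.0410) rose, and Prelp (3238 ± 205 to 2251 ± 250.3 CPM, -0.52 ± 0.11, 0.0458) fell. In Prelp 9.68% of the exonic bases are shared with a gene on the other strand. Of 14 tested genes of degradation and uptake, the membrane-anchored collagenase gene Mmp14 fell from 360.2 ± 11.6 to 188 ± 23.0 CPM (-0.94 ± 0.12, adjusted p = 0.00582) and 13 did not pass. Of 8 tested collagen receptors 0 changed, and the integrin subunits Itga2 (1.27 ± 0.42, adjusted p = 0.220), Itga11 (-0.51 ± 0.32, 0.598) and Itga1 (0.34 ± 0.28, 0.729) had the smallest p-values.

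Of 25 tested non-fibrillar collagens 2 fell and 0 rose, with a median log2 fold change of -0.03. Both are transmembrane collagens, Col13a1 (618 ± 66.7 to 333 ± 22.6 CPM, -0.89 ± 0.12, adjusted p = 0.00770) and Col23a1 (446 ± 42.7 to 297 ± 25.5 CPM, -0.59 ± 0.12, 0.0442), and Col13a1 is also an alveolar fibroblast marker. Among the fibrillar and other collagens that changed, Col5a3 had the lowest log2 fold change.

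The calls of these 7 other genes were less firm than that of Col5a3. Without M2 all 7 were lost (adjusted p from 0.0520 for Creb3l1 to 0.259 for Prelp), and Col5a3 was called there (0.0188). Without M5, Col13a1 (0.0618), Podn (0.0963), Aspn (0.0963), Prelp (0.186) and Col23a1 (0.213) were lost. Podn (0.0550 and 0.0627), Prelp (0.0924 and 0.143) and Col23a1 (0.0746 and 0.143) were also lost without M1 or M6. Col23a1 was lost without M3 (0.0533), and Aspn without M3 (0.0691), M4 (0.0872) or M6 (0.140), without both M3 and M4 (0.0665) and with the endothelial covariate (0.109).

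**Figure D5:**
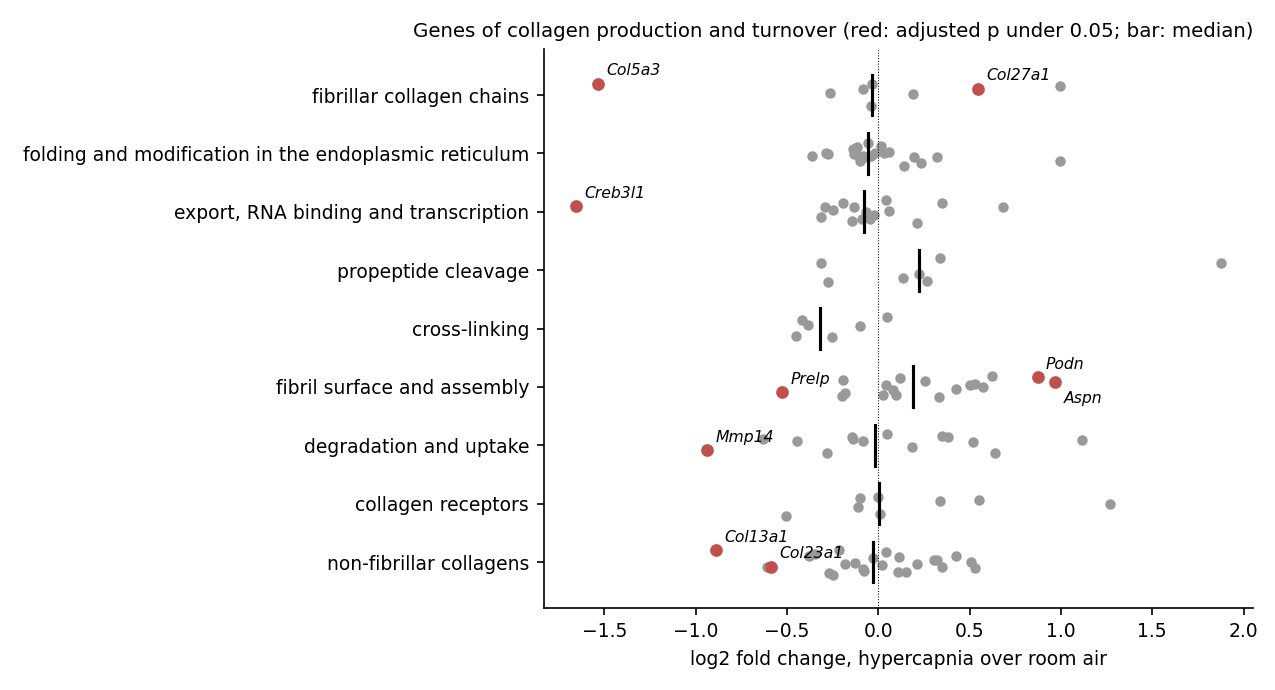
Log2 fold change of hypercapnia over room air for every tested gene of the fibrillar collagens and of 8 lists of collagen production, assembly, turnover and other collagens. Points are genes, red where the edgeR adjusted p is under 0.05, and bars are list medians, which lie between -0.32 and 0.22. Col5a3 and Creb3l1 have the lowest values.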

How the data were processed

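The deposited values are raw counts per Ensembl gene ID in 6 columns. The submitters' processing notes name the mm10 build, HTSeq, TopHat2 2.1.0, FastQC and bcl2fastq 2.17.1.14, with no annotation release, strand setting or read filter given. Column names give the group but not the sample, so columns were assigned to groups only. GENCODE M21 gave symbols for 42462 of 43430 IDs, gene positions and lengths. Counts were filtered with edgeR's default filter by group (minimum count 10), scaled with TMM factors and tested with edgeR 4.0.16 (R 4.3.3, quasi-likelihood F-test, two-sided, group as the only term, Benjamini-Hochberg over 13005 genes). The SE of a log2 fold change is its size over the square root of F. The code was tested on simulated data. At this depth 3 counts are 0.281 to 0.354 CPM. Alternatives were RLE or no factors, factors without the 10 genes, DESeq2 1.42.0, limma-voom (limma 3.58.1), robust dispersion, other filters, an endothelial covariate and leaving out libraries. No 2 libraries were repeats (chi-square per degree of freedom at least 12.6). The genes and lists were chosen with earlier results of these data known. Of each list of collagen production or turnover, called genes were named, or the 3 with the smallest p; of marker lists, called genes were named. Motifs were chosen after the values were seen.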

Additional observations from a re-analysis of the deposited data

How the results depend on the processing

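Col5a3 stayed lower and called in all 16 alternatives (log2 fold change -1.61 to -1.46, highest adjusted p 0.0188). The count of changed fibrillar chains was 2, and 1 with RLE factors, with the endothelial covariate, without M3 and M4 (chosen after seeing the data) and when any 1 library was left out (1 to 1), since Col27a1 was lost. The count of changed genes, 159 (68 higher, 91 lower), was 435 with DESeq2 (210 and 225), 255 with robust dispersion (110 and 145), 756 of 20868 with no filter (467 and 289), 388 without M3 and M4 (125 and 263), and 24 to 148 with 1 library left out (5 to 55 higher, 14 to 99 lower); the lowest counts were 24 without M2, 27 without M5 and 42 without M6, and the cause was not tested. Values near 0 turned sign. Col1a1 was 0.027 without composition factors and -0.12 to 0.021 with 1 library left out. Col3a1 was 0.032 without composition factors, 0.031 with the endothelial covariate, 0.023 without M3 and M4 and -0.090 to 0.040 with 1 library left out. The log2 ratio difference of Col3a1 to Col1a1 was -0.063 to 0.059 with 1 library left out. The other ratios and the share of counts kept their direction. Of the 7 called genes of collagen production, turnover and other collagens, Prelp was lost by the stricter filter (adjusted p = 0.0510). With 2 libraries in a group, its spread is assumed to be like that of the other group. No paired analysis was possible because the columns carry no replicate numbers shared between groups. Depth limits Col24a1, Col2a1 and Col11a1.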
